A study of Homo sapiens with 2 samples.

Results

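The genes described here encode 10 JmjC-domain proteins, 9 histone lysine demethylases of the KDM2 to KDM6 families and the related hydroxylase JMJD6. Below, the family means these 10. Further genes of the same KDM families, such as KDM4D, KDM5A, KDM5C and KDM6A, are not among them and are described with the other JmjC genes. The 10 were taken by name, and every probe set that the array annotation gives to exactly 1 of these symbols was used. Each gene had 1 such probe set and no shared one, so 10 of the 18377 genes with a probe set of their own are described. All 10 passed the filter on dim signals, as did 11469 genes in all. The filter asked for a signal of at least 4.01 in the brighter of the 2 arrays, which is the median of the mean signals of all probe sets.

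The cells were LP-1, an established human multiple myeloma line, a cancer of plasma cells. In the HIF2A array the cells had been stably infected with pRUF-IRES-GFP-HIF2A, a vector carrying the full-length human cDNA of HIF-2α, a transcription factor subunit that accumulates at low oxygen and is the product of EPAS1. In the vector control array they carried pRUF-IRES-GFP without that cDNA. The sources used here do not say whether either population was a clone, or at what oxygen level the cells were grown. Each group has 1 whole-transcript Affymetrix array of total RNA, so no difference below has a replicate check, an error or a p-value. EPAS1 stood at 9.05 in the HIF2A array and 3.70 in the vector control array, in the direction of the labels.

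All 8 plasma cell markers listed passed the filter, with signals from 7.53 to 12.55 in the HIF2A array and from 7.58 to 12.59 in the vector control array. TNFRSF17, the gene of the plasma cell receptor BCMA, was the marker that differed most, at 7.68 in the HIF2A array and 8.71 in the vector control array, a difference of -1.03, and the other 7 lay within 1.5-fold. The summed linear signal of the 8, most of it from JCHAIN, was 9464 in the HIF2A array and 9577 in the vector control array. Markers of B cells passed in 0 of 4 measured, of T or NK cells in 1 of 5, of myeloid cells in 1 of 5 and of stromal cells in 2 of 5. The summed linear signals of those 4 lists ran from 39.8 to 68.6 in the HIF2A array and from 42.3 to 64.9 in the vector control array. In a bulk RNA sample, fewer cells that express a gene and less RNA of it per cell cannot be told apart.

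JmjC demethylases remove methyl groups from histone lysines in a reaction that consumes molecular oxygen and 2-oxoglutarate and needs iron, as the prolyl hydroxylases that mark HIF-α subunits for destruction also do. The enzymes are therefore directly dependent on oxygen, and several of their genes, KDM3A and KDM4B above all, are known to be transcribed more in hypoxia through HIF. In myeloma, KDM3A is known to sustain the transcription factors KLF2 and IRF4, on which the tumour cells depend. The comparison shows which of these genes differ between the HIF2A and the vector control cells. Without replicates it cannot tell the level of HIF-2α apart from other differences between the cultures.

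KDM5B and KDM3A had the largest differences of the family, followed by KDM3B. Of the 10 genes 8 were higher and 2 lower in the HIF2A array, where 52.6% of all genes past the filter were higher. Of the 10, 3 were at least 1.5-fold higher, where 5.67% of all genes past the filter were, and 2 were at least 2-fold higher, where 0.706% of all genes were. None of them was 1.5-fold or 2-fold lower, against 4.76% and 0.732% of all genes. The median of the 10 differences was 0.29 log2 units (HIF2A minus vector control), compared with 0.03 over all genes. The robust SD of the differences of all genes, the scaled median absolute deviation, was 0.34. The mean signals of the family ran from 5.09 to 7.13. Among the 5055 genes in that range 55.3% were higher, the median difference was 0.05 and 6.63% were at least 1.5-fold higher.

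**Figure D1:**
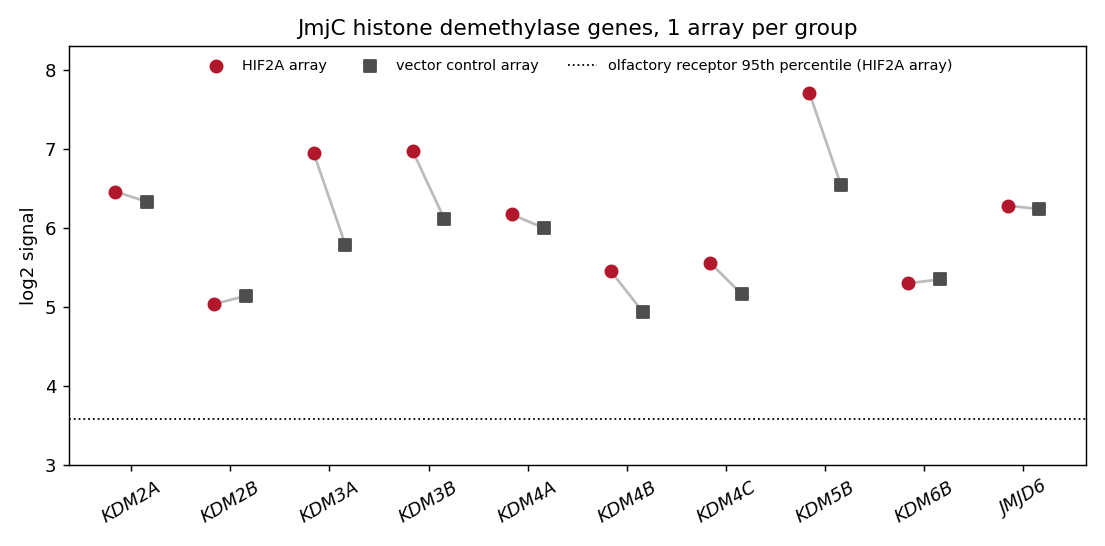
Log2 signal of each demethylase gene in the HIF2A array (red circles) and the vector control array (grey squares), 1 array per group, with the 95th percentile of olfactory receptor genes in the HIF2A array as a dotted line. All 20 signals lie above that background of 3.58, and the gaps are widest for KDM5B, KDM3A and KDM3B. Heights of different genes come from different probes and are not comparable.

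The KDM3 enzymes remove the mono- and dimethyl marks of lysine H3K9, which are linked to silent chromatin. KDM3A had a log2 signal of 6.95 in the HIF2A array and 5.79 in the vector control array, a difference of 1.16 or 2.23-fold. It ranked 45th of the 11469 genes from the top, with 0.384% of them above it. The 20 measured genes nearest to KDM3A on chromosome 2 had a median difference of -0.09, 1.25 below the gene itself. KDM3B, its closest relative, had 6.97 in the HIF2A array and 6.11 in the vector control array, which is 1.82-fold. KDM3B lies on chromosome 5 among genes that were mostly higher, with a median of 0.53 over its 20 neighbours, and its own excess over them was 0.33 log2 units. After that subtraction 2 of the 10 genes, KDM5B and KDM3A, were at least 1.5-fold higher, where 557 of 11456 genes were. What part the chromosome region has in the value of KDM3B was not tested.

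KDM5B removes di- and trimethyl marks from H3K4, which are typical of active promoters. Its signal was 7.71 in the HIF2A array and 6.54 in the vector control array, a difference of 1.17 or 2.25-fold. It ranked 41st of all genes from the top, and the 20 neighbours on chromosome 1 had a median difference of 0.02. That is 1.15 below KDM5B itself. KDM5B and KDM3A kept at least a 1.5-fold difference under each of the 8 alternative settings of scaling, offset, probe set, floor and neighbours. The range was 0.95 to 1.19 for KDM5B and 0.83 to 1.25 for KDM3A, and both lowest values came from adding 32 on the linear scale. The probe set and floor settings could not move either gene, since each has 1 probe set and lies above the floor.

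**Figure D2:**
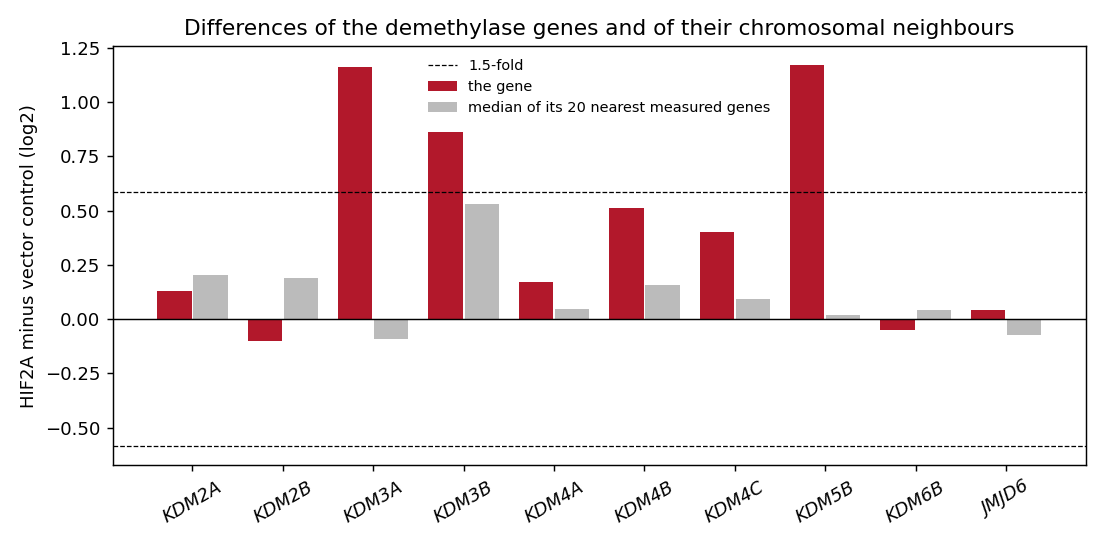
Difference, HIF2A minus vector control in log2 units, of each demethylase gene (red bars) beside the median difference of its 20 nearest measured genes on the chromosome (grey bars), with dashed lines at 1.5-fold. KDM3A and KDM5B exceed 1.5-fold with neighbours near 0, while KDM3B stands beside neighbours at 0.53.

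The promoters of these 3 genes are shown because they carry the largest differences and because HIF binds a short core, ACGTG or GCGTG, that can be looked for in them. They are the 250 bases before an annotated transcription start, from RefSeq on GRCh38.p14, 5′ to 3′ on the strand of the gene, with each core match on either strand in capitals.
KDM5B promoter, chr1:202808422-202808671, minus strand: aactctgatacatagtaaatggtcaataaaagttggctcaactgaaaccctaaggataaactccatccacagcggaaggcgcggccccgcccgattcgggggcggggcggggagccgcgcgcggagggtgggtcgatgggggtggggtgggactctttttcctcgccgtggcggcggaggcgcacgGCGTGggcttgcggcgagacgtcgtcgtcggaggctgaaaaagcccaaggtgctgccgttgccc
KDM3A promoter, chr2:86441121-86441370, plus strand: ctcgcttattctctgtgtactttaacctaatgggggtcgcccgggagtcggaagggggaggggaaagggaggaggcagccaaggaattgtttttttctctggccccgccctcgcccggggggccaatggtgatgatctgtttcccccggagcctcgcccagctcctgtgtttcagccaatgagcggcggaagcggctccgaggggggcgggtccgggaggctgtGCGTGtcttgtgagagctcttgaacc
KDM3B promoter, chr5:138352435-138352684, plus strand: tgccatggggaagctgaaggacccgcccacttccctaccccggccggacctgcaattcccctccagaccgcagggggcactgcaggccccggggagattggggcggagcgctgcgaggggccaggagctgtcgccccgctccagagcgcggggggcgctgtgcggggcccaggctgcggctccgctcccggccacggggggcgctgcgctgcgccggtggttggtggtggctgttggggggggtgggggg
KDM5B has a GCGTG whose first base lies 64 bases before the start, and KDM3A has one 26 bases before this start. KDM3A has a further annotated start downstream, whose window holds the same GCGTG at 116 bases before it. KDM3B has no match in its window, which says only that these letters are not there. The 3 stretches are rich in G and C, at 64.0% for KDM5B, 62.4% for KDM3A and 76.4% for KDM3B.

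The core is common, so a match is a description and not a binding site. Windows of 300 bases, from 250 before to 50 after each start, were searched on both strands for ACGTG and GCGTG, and overlapping matches (the palindrome CACGTG) were counted as 1. Of 27305 genes with such a window 52.4% hold at least 1 match, and of the family 8 of the 9 genes in the table do. KDM4C, KDM4B, KDM2A and KDM2B each have a window with 3 matches, and 9.09% of all genes have a window with 3 or more. The differences of these 4 genes ran from -0.10 for KDM2B to 0.51 for KDM4B. KDM5B and KDM3A have 1 match in a window, and KDM2A, with a difference of 0.13, has 3 in 1 window and 0 in its other. Whether the matches bear on the differences was not tested.

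**Figure D3:**
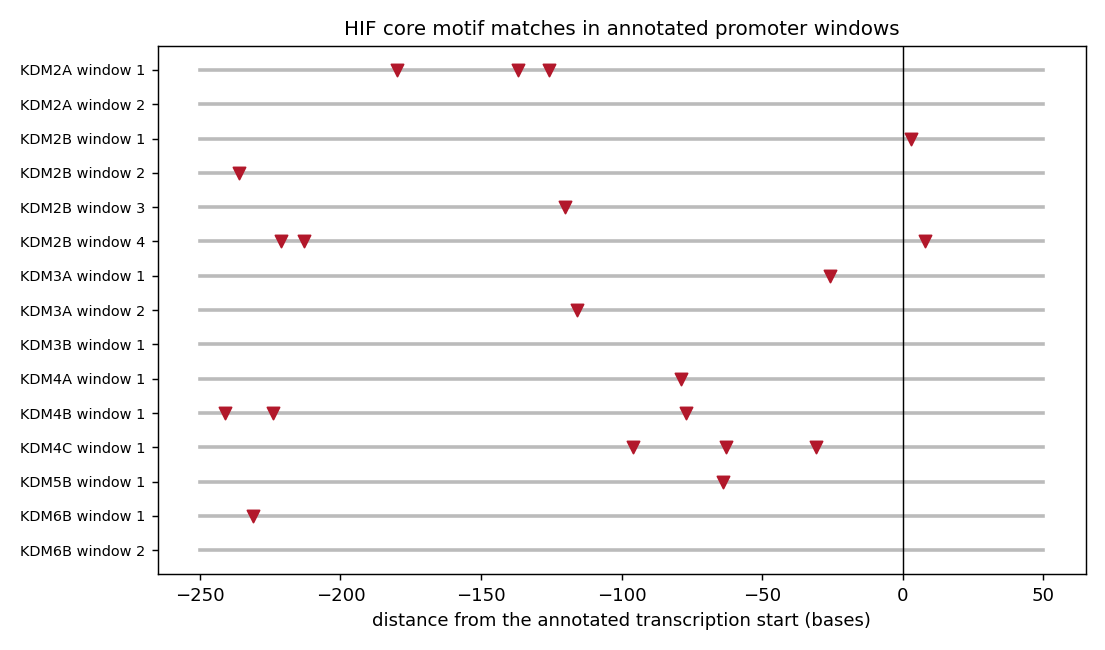
Position of matches to ACGTG or GCGTG on either strand (red triangles) in each annotated promoter window of the family (grey lines), from 250 bases before to 50 bases after the transcription start at 0. KDM4B and KDM4C hold 3 matches each, KDM5B 1, both KDM3A windows the same 1, and KDM3B 0.

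The KDM4 enzymes take trimethyl marks off H3K9 and H3K36, and KDM4B and KDM4C are known as hypoxia-inducible. KDM4B had 5.45 in the HIF2A array and 4.94 in the vector control array, a difference of 0.51 or 1.42-fold. KDM4C had 5.56 in the HIF2A array and 5.16 in the vector control array, a difference of 0.40 or 1.32-fold. KDM4A, a related eraser of the same marks, had 6.17 in the HIF2A array and 6.0 in the vector control array, a difference of 0.17. KDM4B and KDM4C lay beyond the robust SD of all genes and under 1.5-fold, with 8.01% and 13.9% of all genes ranked above them, and KDM4A lay within that SD. Their neighbours had medians of 0.16, 0.10 and 0.05 for KDM4B, KDM4C and KDM4A, so the excess of KDM4B and KDM4C over them was 0.36 and 0.31.

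The matches in KDM4B and KDM4C are shown in their surroundings because 2 of those in KDM4C and 1 of those in KDM4B are the palindrome CACGTG, which E-box factors such as MYC also bind. The capitals mark the match.
KDM4B, chr19:4968863-4968887, plus strand: gtcagcgggCACGTGggtgggcgcc
KDM4B, chr19:4968879-4968903, plus strand: gtgggcgccgGCGTGtccccgccgg
KDM4B, chr19:4969026-4969050, plus strand: gggcgctcggGCGTGgatccggcag
KDM4C, chr9:6757867-6757891, plus strand: caaagcaagaGCGTGccgggcacct
KDM4C, chr9:6757900-6757925, plus strand: tttgtaagccCACGTGactcaccaag
KDM4C, chr9:6757932-6757957, plus strand: ccccagcggtCACGTGacggcgcgcg
The first 2 stretches of KDM4B overlap. KDM4B lies on chromosome 19 and KDM4C on chromosome 9. In the other members and windows of the table every match was a plain 5-base core.

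KDM2A and KDM2B remove the lower methyl states of H3K36 and bind CpG islands through a zinc finger that recognises unmethylated CpG. KDM2A had 6.46 in the HIF2A array and 6.33 in the vector control array, a difference of 0.13, and its neighbours had a median of 0.21. KDM2B had 5.04 in the HIF2A array and 5.14 in the vector control array, a difference of -0.10, against neighbours at 0.19. Both differences lay within the robust SD of all genes. KDM2B also recruits a variant Polycomb repressive complex. Of the 8 measured partners in that complex 2 were higher and 6 lower, where 52.6% of all genes were higher, and the median was -0.14. At 1.5-fold there were 0, which among 8 genes is near the shares of all genes. The SCF and Polycomb subunit gene SKP1 had 4.81 in the HIF2A array and 5.36 in the vector control array, and the ubiquitin ligase gene RING1 had 6.37 against 6.84, whereas the corepressor gene BCOR had 7.08 against 6.74.

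KDM6B removes di- and trimethyl marks from H3K27, the mark laid down by the Polycomb enzyme EZH2. It had 5.30 in the HIF2A array and 5.35 in the vector control array, a difference of -0.05. The EZH2 gene was at 7.42 in the HIF2A array and 7.93 in the vector control array, a difference of -0.51, and EED, a core partner of EZH2, was at 5.94 against 6.30. SUZ12, the other core partner, had 7.43 in the HIF2A array and 7.18 in the vector control array. Over the 4 genes of this list, 2 of them higher and 2 lower, the median was -0.12, and none reached 1.5-fold. Of all genes 52.6% were higher, and 5.67% and 4.76% were at least 1.5-fold higher and lower. With 4 genes the counts cannot be told apart from those shares.

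JMJD6 hydroxylates lysines of splicing factors, and its activity as a histone arginine demethylase is debated. It had 6.28 in the HIF2A array and 6.24 in the vector control array. This difference of 0.04 was the smallest in size of the family, and it came to 0.00 under quantile normalization and -0.0011 under loess centring, so its direction is not settled. Of 6 measured genes of JMJD6 partners and substrates 1 was higher and 5 were lower, where 52.6% of all genes were higher. The median was -0.22. At 1.5-fold 1 was higher and 0 were lower, against 5.67% and 4.76% of all genes, and 6 genes are too few to tell apart from those shares. The splicing factor gene SRSF11 had 7.96 in the HIF2A array and 7.37 in the vector control array, with neighbours at a median of 0.43. U2AF1, a subunit of the splicing factor that recognises the end of introns, had 9.65 against 10.23.

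**Figure D4:**
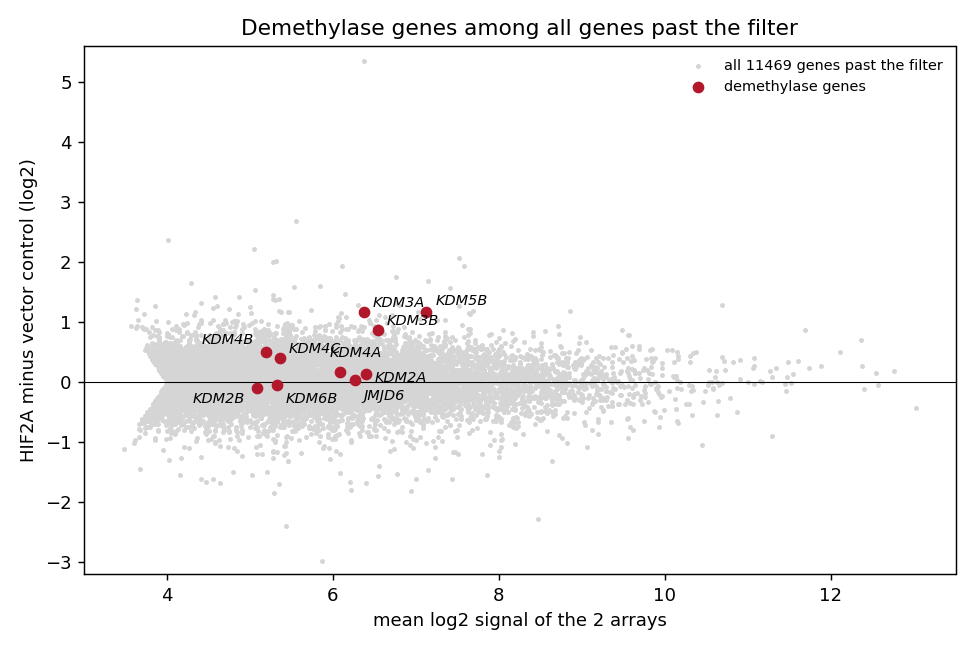
Difference, HIF2A minus vector control, against the mean log2 signal of the 2 arrays for all 11469 genes past the filter (light grey), with the demethylase genes in red. KDM5B, KDM3A and KDM3B lie at the upper edge of the cloud and the other 7 inside it.

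The other genes of the JmjC fold were looked at by a list of 20, of which 18 were measured and 16 passed the filter. KDM4E has no probe set under that symbol in the annotation used here, JMJD7 has only a probe set it shares with other genes, and the H3K27 demethylase gene KDM6A, with 3.65 in the HIF2A array and 3.81 in the vector control array, and HSPBAP1 were under the filter. Of the 16, 13 were higher and 3 lower, where 52.6% of all genes were higher, and the median was 0.23. At 1.5-fold 3 were higher, or 18.8%, against 5.67% of all genes, and 0 were lower, against 4.76%. PHF2, which demethylates H3K9, had 5.54 in the HIF2A array and 4.86 in the vector control array. RIOX2, a ribosomal histidine hydroxylase, had 5.94 against 5.32. KDM7A, an eraser of H3K9 and H3K27 marks, had 4.32 in the HIF2A array, and its 3.49 in the vector control array lay in the olfactory receptor range, so it is given as at least 1.66-fold higher. KDM5A and KDM5C, the closest relatives of KDM5B, had differences of 0.30 and 0.20, and JMJD1C, the relative of KDM3A and KDM3B, had 0.19. These 3 lay within the robust SD of all genes. PHF8 and JARID2, a catalytically inactive Polycomb partner, had 0.44 and 0.43. The 3 lower genes were JMJD4 at -0.22, KDM8 at -0.13 and JMJD8 at -0.01. Joined with the 10 genes above, 21 of 26 JmjC genes past the filter were higher. KDM7A and KDM4D, at 4.14 in the HIF2A array and 3.96 in the vector control array, passed through the HIF2A array alone and so had to be higher, and both measured genes under the filter were lower. Without a filter 21 of 28 JmjC genes were higher, where 48.9% of all 18377 genes were, and the median of the 18 measured outside the family was 0.20.

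The demethylases that use FAD in place of iron and 2-oxoglutarate are only 2 genes. Neither was higher, where 52.6% of all genes were. KDM1A had 7.96 in each array, and KDM1B had 4.09 in the HIF2A array and 4.29 in the vector control array. Both differences lay within the robust SD of all genes, and 2 genes are too few to set against the JmjC counts. The TET enzymes, which oxidise methylcytosine in DNA with the same cofactors as the JmjC enzymes, had TET1 at 5.56 in the HIF2A array and 4.80 in the vector control array, and TET3 at 6.18 against 5.73. TET2 had 4.91 in the HIF2A array and 4.97 in the vector control array. Of the oxygen-dependent regulators of HIF itself, EGLN1 had 5.70 in the HIF2A array and 5.05 in the vector control array, which is 1.57-fold. P4HTM had 5.97 against 5.25, which is 1.65-fold. HIF1AN, counted above with the other JmjC genes, had 5.96 against 5.66, a difference of 0.30 that lay within the robust SD of all genes. EGLN3 was under the filter, and EGLN2 has only a probe set it shares with other genes.

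The enzymes that write the same marks went both ways. Of 27 genes in the lists of H3K4, H3K9, H3K27 and H3K36 methyltransferases and their core partners, 18 were higher and 9 lower, with a median of 0.13. That is 66.7% higher, where 52.6% of all genes were. Among the higher genes SMYD3, at 4.10 in the HIF2A array and 3.76 in the vector control array, passed the filter through the HIF2A array alone. It therefore had to be higher. At 1.5-fold 2 were higher, or 7.41%, close to the 5.67% of all genes, and 0 were lower, against 4.76% of all genes. The H3K36 writer NSD1 had 6.11 in the HIF2A array and 5.21 in the vector control array, which is 1.87-fold, with neighbours on chromosome 5 at a median of 0.24. The H3K9 writer EHMT1 had 5.52 against 4.92, and its partner EHMT2 had 6.48 against 6.02. NSD2, the H3K36 writer that a translocation places under immunoglobulin enhancers in LP-1, had 6.28 in the HIF2A array and 6.29 in the vector control array. The 6 H3K9 writer genes, 3 higher and 3 lower, had a median of 0.05 and ran from -0.23 for SUV39H2 to 0.60 for EHMT1. For H3K4, KDM5B at 1.17 stood beside 12 writer and partner genes with a median of 0.15, from -0.52 for ASH2L and SETD7 to 0.56 for KMT2A. SETD7 lies among neighbours with a median of -0.55.

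**Figure D5:**
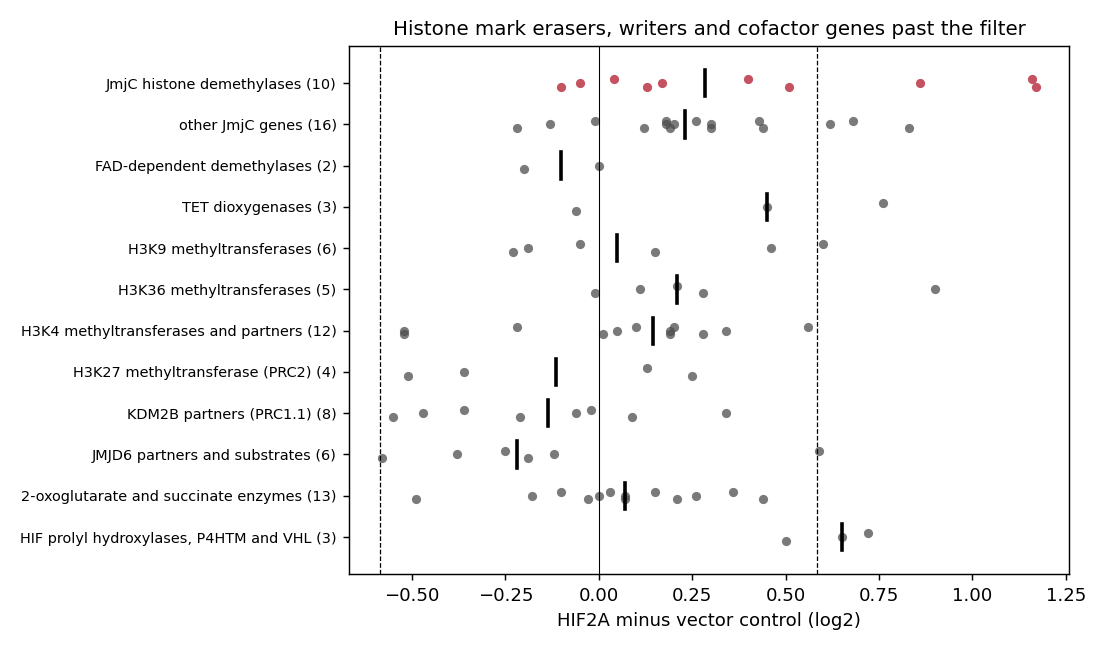
Difference, HIF2A minus vector control in log2 units, of each gene past the filter in lists of mark erasers, writers, partners and cofactor enzymes; points are genes, black bars list medians, dashed lines 1.5-fold, and the number of genes is in brackets. The demethylase genes (red) reach 1.17, while the 12 H3K4 writer and partner genes run from -0.52 to 0.56.

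Enzymes that make or use 2-oxoglutarate, or that handle succinate, which inhibits JmjC enzymes, were listed as 17 genes, of which 13 were measured. Of these 8 were higher and 4 lower, where 52.6% of all genes were higher, and the median was 0.07. At 1.5-fold there were 0 in either direction, which among so few genes is near the 5.67% and 4.76% of all genes. The cytosolic isocitrate dehydrogenase gene IDH1 had 6.46 in the HIF2A array and 6.95 in the vector control array, and the mitochondrial IDH3A had 8.18 against 7.74. SDHA, a succinate dehydrogenase subunit gene, had 9.77 in the HIF2A array and 9.41 in the vector control array.

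Of the genes reported elsewhere to depend on KDM3A or KDM6B, 8 passed the filter, 6 of them higher and 2 lower. A 1.5-fold higher signal was reached by ADM and ITGB7. The share over all genes was 52.6% higher and 5.67% at least 1.5-fold higher. KLF2 had 7.17 in the HIF2A array and 7.16 in the vector control array, and IRF4 had 9.40 against 9.69. The integrin gene ITGB7, reported downstream of KLF2 in myeloma, had 9.96 in the HIF2A array and 9.17 in the vector control array, a difference of 0.79. The long non-coding RNA gene MALAT1 had 10.93 against 10.87, the transcription factor gene ELK1 had 6.09 against 5.85, and FOS was under the filter. Of genes reported as hypoxic targets of KDM3A in other tumour cells, the vasodilator peptide gene ADM, itself a HIF target, had 9.18 in the HIF2A array and 8.25 in the vector control array. HMOX1, the heme oxygenase gene, had 4.74 against 4.56 and the stress cytokine gene GDF15 had 3.49, in the olfactory receptor range, against 4.05. GDF15, counted among the lower genes, passed the filter through the vector control array alone and so had to be lower. EDN1 and SLC2A3 were under the filter.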

How the data were processed

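RNA from the 2 LP-1 lines was measured on 1 array each. The deposited values are log2 signals for 28869 probe sets, which the submitters' processing notes credit to Affymetrix Expression Console. The sources used here do not give its version, algorithm, background correction or centring. Base 2 was inferred, because the top value of 13.97 is above 11.09, the most that natural logs of 16-bit readings can reach. Scanner files were not used here.

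Probe sets with 1 gene symbol, 19310 in number, were renamed by Entrez number through the RefSeq table of GRCh38.p14, which matched 19279. Those with several symbols (1752) or none listed (7807) were left out. A gene took its probe set with the highest mean signal. Olfactory receptor genes, 359 in number, served as background: signals up to their 95th percentile, 3.58 in the HIF2A array and 3.59 in the vector control array, count as dim, and a fold against them is a bound.

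Differences are HIF2A minus vector control, counted at 1.5-fold and at 2-fold. The genes, lists and rule for named genes were chosen with earlier results of these data known. The family, other JmjC, FAD, TET and short lists are named freely, and elsewhere up to 3 genes with the largest positive and 3 with the largest negative difference. The KDM4B and KDM4C sites were picked after the values were seen. Y-linked relatives were left out. Promoter windows came from the RefSeq table, in which JMJD6 was not matched; protein sequences were not used here.

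Alternatives were quantile, median and loess centring (span 0.3, 3 robust passes), 32 added on the linear scale, filters (none, 25th and 75th percentile), the mean or dimmest probe set, a floor at the olfactory receptor level, and the median of 20 neighbouring genes subtracted. The code was tested on simulated data. Tables were handled with pandas 2.3.3 and numpy 2.4.6 under Python 3.11.15, loess came from statsmodels 0.14.6, and figures were drawn with matplotlib 3.10.9.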

Additional observations from a re-analysis of the deposited data

How the results depend on the processing

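With 1 array in each group there is no replicate to leave out. No paired analysis was possible because each group has 1 array and the result comes from no test. The count of family members at least 1.5-fold higher was 3 of 10. It was 2 after subtracting neighbours, where 557 of 11456 genes were that much higher, and 2 at 2-fold, where 81 of 11469 were. With the filter at the 75th percentile it was 3 of the 7 members left, where 424 of 6100 genes were at least 1.5-fold higher. The median of the family members ran from 0.17 with 32 added to 0.40 with that filter, and the median of the other JmjC genes from 0.14 to 0.30. Of 80 values of single members under 8 settings, 79 moved by less than the robust SD of all differences, 0.34, and KDM3B came to 0.33 after subtracting neighbours. The sign differed from the deposited signals or came to 0 in 3 of them, for KDM2A, at -0.08 after subtracting neighbours, and for JMJD6. The probe set settings cannot move members with 1 probe set, nor the floor members above it, so these counts do not measure stability. Over all genes, 650 were at least 1.5-fold higher and 546 lower. These counts came to 138 and 143 with 32 added, which shrinks differences of dim genes by construction, to 424 and 355 with the 75th percentile filter, which tests 6100 genes, and to 81 and 84 at 2-fold. The median of all genes stayed between 0.01 and 0.05 under the scalings. No setting replaces replicate cultures, and the spread between cultures was not measured.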
